A study of Homo sapiens with 10 samples.

Results

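The comparison described here is that of clones of EA.hy926 carrying a CRISPR/Cas9 deletion at VEGFC-LNC with the controls made for that deletion, 5 of the 10 RNA-Seq libraries of the series. EA.hy926 is an established human hybrid line that is used as an endothelial model and is itself a cross of an umbilical vein endothelial cell with a lung carcinoma line. VEGFC-LNC is a long noncoding RNA transcribed upstream of VEGFC, and its promoter region was removed with a pair of guide RNAs. The deletion group held 3 libraries, each of 1 single-cell-derived clone described in the study as homozygous, and the control group held 2 libraries of cells that received the guide RNAs but no Cas9 and were then taken through clonal selection. The 5 libraries were chosen by their labels alone. A second set of 3 VEGFA-LNC deletion clones and 2 controls made in the same way was used for the estimate of the spread and, where stated, as a further reference. All groups were grown in the same high-glucose medium with serum, and no agent was added.

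The values are FPKM, reads scaled to transcript length and library size, for RefSeq transcripts on hg19. The 5 libraries held 22411375, 18487274 and 6743689 reads (clones 1, 2 and 3) and 9493605 and 24197565 reads (controls 1 and 2). Of 27945 gene symbols, 13333 had a level of at least 1 CPM (reads scaled to library size only) in at least 2 of the 10 libraries and were tested as log2(FPKM + 0.1) in limma. P-values were adjusted over all 13333 genes by the Benjamini-Hochberg method to a false-discovery rate (FDR). A gene with an FDR under 0.05 that differed by 1.5-fold or more, either way, is called a DEG, for differentially expressed gene. The controls lay very close to each other. Among genes with at least 20 reads, 9.63% differed between the 2 controls past the 5% point of a chi-square test of reads, against 42.2% to 61.8% between pairs of clones. The controls thus differed by little more than sampling noise and were kept as 2 samples. Since the labels do not say whether they were separate clones, the p-values measure the spread between these samples, which may be technical on the control side. With the controls of each pair averaged to 1 sample, 1 DEG was left, SPRR2B.

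VEGFC is a secreted growth factor of the VEGF family that acts mainly through VEGFR-3 (FLT4) and VEGFR-2 (KDR) and is best known for the growth of lymphatic vessels. It is made as a precursor that is cleaved outside the cell, a step in which the matrix protein CCBE1 takes part. Long noncoding RNAs near a coding gene can be part of its regulatory region, either through the transcript or through the DNA elements beneath it. In bulk RNA, fewer cells of a type and less RNA per cell cannot be told apart.

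VEGFC (NM_005429, chromosome 4, 177604685 to 177713899, minus strand) fell in the clones, by 0.998 on the log2 scale. Its level was 5.38, 4.84 and 4.63 FPKM in clones 1, 2 and 3 and 9.47 and 10.5 FPKM in the controls, from 65 to 251 reads per clone. The clones lay below both controls and did not overlap them. The group means were 4.95 ± 0.388 FPKM (SD, n = 3) and 9.98 ± 0.722 FPKM (SD, n = 2), a log2 fold change of −0.998 (SE 0.12, FDR 0.0145). The two-sided exact permutation test over the 10 splits of 3 against 2 libraries gave p = 0.2, the smallest that this design can give. Among other settings, the call was lost when either control was left out (FDR 0.188 and 0.291), when clone 2 was left out (FDR 0.0556), when either VEGFA-LNC control was left out (FDR 0.0628 and 0.0627), when only the 5 libraries were fitted (FDR 0.0712) and with the controls averaged (FDR 0.842). The log2 fold change itself stayed between −1.34 and −0.88 in all alternatives. VEGFC was at 16.1 and 15.97 FPKM in the VEGFA-LNC set controls, above both other groups. The table used here has no row for VEGFC-LNC, so its loss was not checked.

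The promoter window of VEGFC is shown because the gene is the one that the deletion was aimed at. It runs from 250 bases before to 50 bases after the start of transcription (RefSeq, GRCh38.p14, chr4:176792873-176793172, minus strand), with the GC box GGGCGG, or its complement on the other strand, in capitals:
VEGFC: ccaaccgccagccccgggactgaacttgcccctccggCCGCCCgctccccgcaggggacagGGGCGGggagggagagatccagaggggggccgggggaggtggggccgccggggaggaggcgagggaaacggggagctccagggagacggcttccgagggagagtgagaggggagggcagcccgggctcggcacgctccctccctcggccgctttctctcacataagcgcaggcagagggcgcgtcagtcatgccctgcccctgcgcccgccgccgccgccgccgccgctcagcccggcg
The window held 2 such matches. At least 1 was found in 44.6% of all 27305 genes with a window and in 69.1% of the 10001 tested genes with a window.

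All 6 tested genes within 1 Mb of VEGFC, VEGFC included, had lower mean values in the clones, and VEGFC was the only DEG among them. NEIL3, a DNA glycosylase 517 kb away, had the largest difference of the other 5. Its level was 3.31, 0.769 and 1.12 FPKM in the clones and 6.44 and 7.12 FPKM in the controls, with a log2 fold change of −2.16 (SE 0.90, FDR 0.25). AGA, a lysosomal amidase 638 kb away, had 4.83, 2.73 and 2.23 FPKM against 5.67 and 6.32 FPKM, a log2 fold change of −0.93 (SE 0.29, FDR 0.161). SPCS3, a subunit of the signal peptidase complex 351 kb away and the nearest tested gene, had 26.3, 21.0 and 17.2 FPKM against 26.7 and 27.3 FPKM. WDR17 and LINC01098 had log2 fold changes of −0.42 and −0.52, with FDRs of 0.543 and 0.219. Every clone was below both controls for each of the 6, a pattern found in 30.6% of the tested genes. The clones were also below the VEGFA-LNC set controls for VEGFC, AGA and SPCS3, but not for NEIL3, WDR17 and LINC01098. Those controls had 2.65 and 2.72 FPKM of NEIL3, below clone 1, and 0.189 and 0.169 FPKM of WDR17, below every clone. The nearest other DEG was PRIMPOL, a primase and polymerase that restarts stalled replication forks, 7.86 Mb away.

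The lower values near VEGFC were part of a longer stretch. The chromosomes were divided into 255 windows of about 50 tested genes each, and the median log2 difference was taken for each window. In 29 windows it was below −0.3, and 24 of these lay on chromosomes 4, 12 and 16. The other 5 were 2 windows of chromosome 1 and 3 of chromosome 6. Windows 2 and 3 of chromosome 6, the first of which holds the histone gene HIST1H2BD, had medians of −0.61 and −0.42. Against the controls of the VEGFA-LNC set they had 0.29 and 0.45. Windows 16 and 17 of chromosome 1 and window 13 of chromosome 6 had −0.22, −0.30 and −0.26 against those controls. The distal part of chromosome 4, from 99992130 to 190884359, held 201 tested genes with a median of −0.49, of which 166 had lower mean values in the clones. Chromosome 12 from 73725 to 83359750 held 463 tested genes with a median of −0.44. On chromosome 16 the stretch took in all 12 windows, with 631 tested genes and a median of −0.42. Outside these 3 stretches the median over 12038 genes was −0.06. The stretches were chosen on these values, and they are given as a description without a test.

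The 3 clones did not share the same boundaries. On chromosome 4, clones 1 and 2 lay lower from the sixth window on, whereas clone 3 came down mainly in the last 2 windows, where its medians were −0.59 and −0.64. Clone 1 alone had lower values at the start of chromosome 4, with a median of −0.63 over the 120 tested genes up to 40 Mb against −0.07 and −0.05 in clones 2 and 3. Elsewhere, window 16 of chromosome 1 had medians of −0.73, −0.31 and −0.04 in clones 1, 2 and 3. The last window of chromosome 6 had −0.60, −0.18 and −0.14. The first 123 tested genes of chromosome 12, up to 16 Mb, had a median of −0.84 in clone 1, −0.56 in clone 2 and −0.42 in clone 3. The window medians of chromosome 16 lay below 0 in every clone. Against the controls of the VEGFA-LNC set, the 3 stretches had medians of −0.55, −0.50 and −0.56, against −0.17 outside them. The lower values were thus seen against both control pairs. The VEGFA-LNC deletion clones, set against their own controls, had medians of −0.14, −0.01 and −0.09 over the same genes. DNA copy number was not measured, and its part in these values was not tested.

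VEGFC lay below the median of its stretch in each clone, by 0.39, 0.31 and 0.70 on the log2 scale in clones 1, 2 and 3. Of the 201 tested genes of the stretch, 39 had a log2 fold change as low as that of VEGFC or lower, VEGFC included. The last window of chromosome 4, from 165997230 to 190884359, holds VEGFC. Its medians were −0.44, −0.70 and −0.64 in clones 1, 2 and 3, against −0.88, −1.03 and −1.09 for VEGFC. In clone 3, VEGFC thus stood less far below this window than below the whole stretch. These values describe how far VEGFC stood from its neighbours and are not a test.

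Across the genome, 63 of the 13333 tested genes were DEGs, 0.473% of those tested. Of these, 20 (0.15% of all tested genes) rose and 43 (0.323%) fell, and 2508 genes had an unadjusted p under 0.05. With median-of-ratios scaling of the libraries the split was 38 up and 44 down, and the median log2 fold change of all genes moved from −0.09 to −0.0039. For all 63 DEGs the 3 clones and the 2 controls did not overlap, which held for 47.8% of the tested genes. The DEGs were called on the difference between these same libraries, so that this is largely built in. For 54 of the 63 the clones did not overlap any of the 4 controls of the series either, which held for 20.2% of the tested genes. Of the 43 genes that fell, 42 were below all 4 controls, and of the 20 that rose, 12 were above all 4. The chromosome stretches held 9.71% of the tested genes and 48.8% of the DEGs that fell: 7 on chromosome 4, 4 on chromosome 12 and 10 on chromosome 16. Since the stretches were chosen for low values in this same comparison, a larger share of the decreases there is built in. The chromosome 16 count takes in 4 rows of SULT1A3/SULT1A4 that are best read as 1 signal. Leaving out control 1 or control 2 reduced the number of DEGs to 5 and 6, of which ADAMTS9, SPRR2A, SPRR2B, NAALAD2 and LBH were common to both. Leaving out clone 2 left 23 DEGs and leaving out either VEGFA-LNC control left 19, while 1158 were called without clone 1 of the VEGFA-LNC set. One DEG on chromosome X is not described here.

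**Figure D1:**
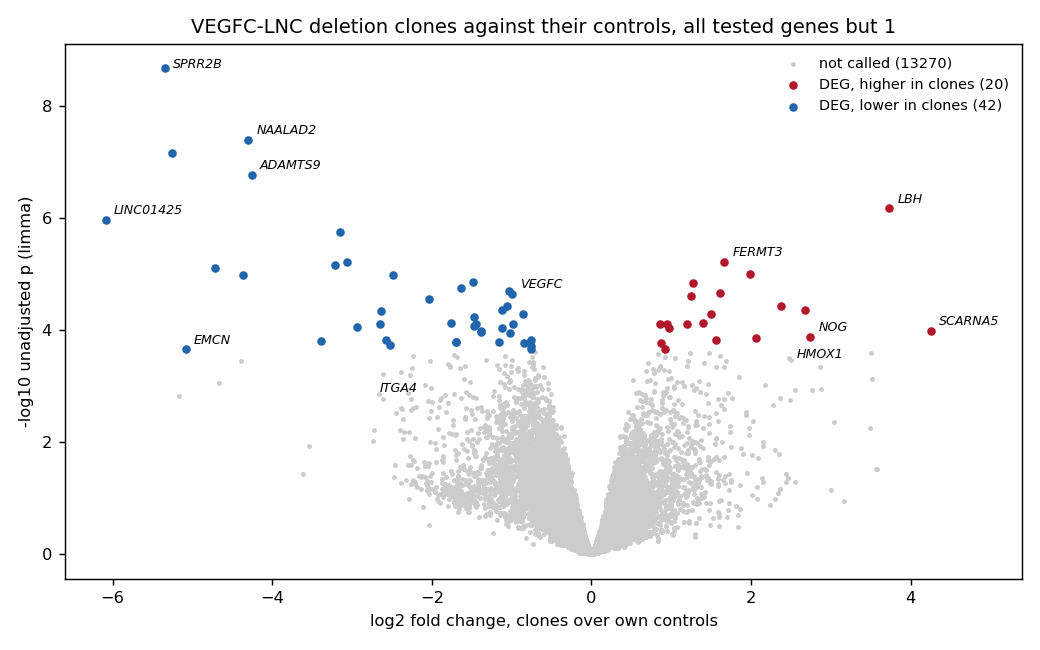
Log2 fold change between the VEGFC-LNC deletion clones and their controls (x axis) against −log10 of the unadjusted limma p (y axis) for all tested genes but 1, with DEGs in color. The decreases extend further from 0 than the increases, to −6.08 for LINC01425 against 4.25 for SCARNA5.

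The largest decreases were of genes that the controls expressed at a few FPKM and the clones hardly at all. LINC01425, a noncoding RNA on chromosome 21, had 6.84 and 6.51 FPKM in the controls and no read in any clone, against 168 control reads. Taking a floor of 3 reads over the clones, it was at least 79.2-fold lower. SPRR2A and SPRR2B, cornified envelope proteins of squamous epithelium, also had no read in any clone and were at least 39.6-fold and 44.3-fold lower. These 2 genes are near-identical in sequence and their reads can be shared. ZNF613, a zinc finger protein, was at 0 in all clones and at 0.362 and 0.585 FPKM in the controls, at least 19.3-fold lower. LINC01425 was also lower in the VEGFA-LNC deletion clones, at 0.712, 0.287 and 0.076 FPKM against 7.92 and 6.63 FPKM in their controls. For LINC01425 the FDR of the difference between the 2 deletions was 0.234. Intervals and floors cover counting error only, since the reads carried no molecular identifiers.

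EMCN (endomucin), a sialomucin of the endothelial surface, was expressed at 0.022, 0.121 and 0.184 FPKM in the clones and at 6.39 and 6.74 FPKM in the controls. The fitted log2 fold change was −5.08 (SE 0.85, FDR 0.0467), and 2 to 9 reads stood behind each clone. EMCN lies in the distal stretch of chromosome 4, but its difference was far larger than the median of that stretch. TNC (tenascin C), a matrix glycoprotein, had 0.016, 0.006 and 0 FPKM against 2.14 and 2.08 FPKM, a log2 fold change of −4.36 (SE 0.49, FDR 0.00927). ADAMTS9, a secreted protease that cleaves versican and other proteoglycans, had 0.068, 0 and 0.061 FPKM against 2.59 and 2.54 FPKM, a log2 fold change of −4.26 (SE 0.29, FDR 0.000564). All 3 genes were also expressed in the controls of the VEGFA-LNC set, at 4.83 and 5.06 FPKM for EMCN, 5.04 and 5.11 FPKM for TNC and 2.43 and 2.11 FPKM for ADAMTS9. The clones of that set had 0.05, 1.54 and 0.172 FPKM of EMCN and 0.769, 0.367 and 1.85 FPKM of TNC. Against those controls the log2 fold changes were −3.64 for EMCN (FDR 0.0609) and −2.48 for TNC (FDR 0.0362). The FDR of the difference between the deletions was 0.554 for EMCN and 0.198 for TNC. ADAMTSL4, an ADAMTS-like protein of the fibrillin network, also fell in the VEGFC-LNC comparison, from 0.87 and 0.733 FPKM to 0.249, 0.21 and 0.216 FPKM.

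Other genes that fell to near 0 had varied roles. NAALAD2, a relative of glutamate carboxypeptidase II, went from 3.39 and 3.41 FPKM to 0.102, 0.088 and 0.048 FPKM (log2 fold change −4.30, SE 0.25, FDR 0.000268). MAGEC2, a cancer-testis antigen on chromosome X, had 9.21 and 10.4 FPKM in the controls and 1.12, 0.761 and 1.04 FPKM in the clones (log2 fold change −3.22, SE 0.34, FDR 0.00826). PPL (periplakin), which links keratin filaments to the cornified envelope, had 1.24 and 1.27 FPKM against 0.072, 0 and 0.024 FPKM. GNAI1, an inhibitory G protein subunit, and NREP had log2 fold changes of −2.65 and −3.07. TENM1, a teneurin, had 1 read over the clones and 230 over the controls, a ratio of 325 with a 95% counting interval of 57.8 to 1.29e+04. COBLL1, TMEM132D-AS1 and LINC01324 had 2 reads each over the clones, with ratios of 58.0, 56.6 and 21.2 and intervals of 15.5 to 487, 15.2 to 475 and 5.38 to 183. LOC100506258, METTL7A, ZNF608 and CNTNAP4 fell with log2 fold changes of −3.16, −2.58, −2.53 and −2.04. TMEM132D-AS1 and ZBED5-AS1 are antisense genes and LOC100506258 overlaps SYT9, and since the setting for strand was not given in the sources used here, reads from overlapping genes may be mixed in them.

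The remaining decreases were of genes that kept a clear level in the clones. CDKN1B, the cyclin-dependent kinase inhibitor p27, lies in the chromosome 12 stretch and had 7.38, 7.95 and 6.13 FPKM against 14.6 and 13.8 FPKM (log2 fold change −0.99, SE 0.14, FDR 0.0269). ADIPOR2, an adiponectin receptor in the same stretch, fell by 0.85 on the log2 scale. FAM19A2, a secreted chemokine-like protein also in this stretch, fell by 1.63. On chromosome 4, besides VEGFC and EMCN, PRIMPOL, the mitochondrial enzyme ETFDH, TRIML2, the complex I subunit NDUFC1 and LRBA fell, with log2 fold changes of −1.49, −1.16, −1.13, −1.04 and −0.76. On chromosome 16 the DEGs were PPL, CNTNAP4, BCL7C, PDPR, DDX19B, GINS3 and 4 rows of the sulfotransferase SULT1A3/SULT1A4, which share 1 family of near-identical copies and are best read as 1 signal. SULT1A3 had 49.0, 23.1 and 29.8 FPKM in the clones and 102 and 107 FPKM in the controls. Elsewhere, HSD17B4, a peroxisomal enzyme, and ADIRF fell by 1.12 and 1.44 on the log2 scale.

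LBH, a transcription cofactor, rose the most of the protein-coding genes. Its level was 8.93, 5.09 and 6.27 FPKM in the clones and 0.539 and 0.296 FPKM in the controls, a log2 fold change of 3.73 (SE 0.30, FDR 0.0018). NOG (noggin), a secreted antagonist of bone morphogenetic proteins, had 6.76, 3.06 and 4.32 FPKM against 0.502 and 0.678 FPKM (log2 fold change 2.74, SE 0.43, FDR 0.0368). SUCNR1, the succinate receptor, had 10.6, 4.95 and 9.84 FPKM against 1.59 and 1.36 FPKM (log2 fold change 2.37, SE 0.31, FDR 0.0201). For LBH, NOG and SUCNR1 alike, every clone also exceeded the controls of the VEGFA-LNC set, which had 2.37 and 2.61 FPKM for LBH, 1.25 and 1.34 FPKM for NOG and 2.15 and 2.57 FPKM for SUCNR1.

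The other protein-coding genes that rose had varied roles. NTN4 (netrin 4), a laminin-related matrix protein, had 84.1, 77.7 and 86.9 FPKM against 20.9 and 20.8 FPKM (log2 fold change 1.98, SE 0.22, FDR 0.00927). The VEGFA-LNC set controls had 68.7 and 74.3 FPKM of NTN4, below every clone but far above the own controls. COL4A1, a chain of the type IV collagen of basement membranes, had 17.7, 14.3 and 15.1 FPKM against 6.69 and 6.37 FPKM (log2 fold change 1.25, SE 0.16, FDR 0.0149). COL4A2, its partner chain at the same locus, had 32.0, 22.6 and 21.4 FPKM against 12.7 and 12.2 FPKM (log2 fold change 0.99, FDR 0.0725), and it was not a DEG. FERMT3 (kindlin-3), which activates integrins, TGFA, a ligand of the EGF receptor, and RCAN1, a regulator of calcineurin, rose by log2 fold changes of 1.67, 1.499 and 1.61. The VEGFA-LNC set controls lay above every clone for TGFA, at 3.81 and 3.81 FPKM against 2.10 to 2.46 FPKM in the clones, and for RCAN1, at 39.8 and 38.1 FPKM against 13.5 to 21.5 FPKM. They also lay above every clone for GDF15, PRNP, PTGR1 and FICD. GDF15, a stress-induced cytokine, had 110, 126 and 93.9 FPKM against 56.5 and 58.8 FPKM (log2 fold change 0.92). The other genes that rose and are named here were PRNP, the prion protein, GBA2, a glucosylceramidase, PTGR1, a prostaglandin reductase, FICD, which modifies the ER chaperone BiP, ARMC9, APC2, EDDM13 and ARL14EPL, with log2 fold changes between 0.85 and 2.06. With all 4 controls as the reference the log2 fold change of PTGR1 was −0.06.

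**Figure D2:**
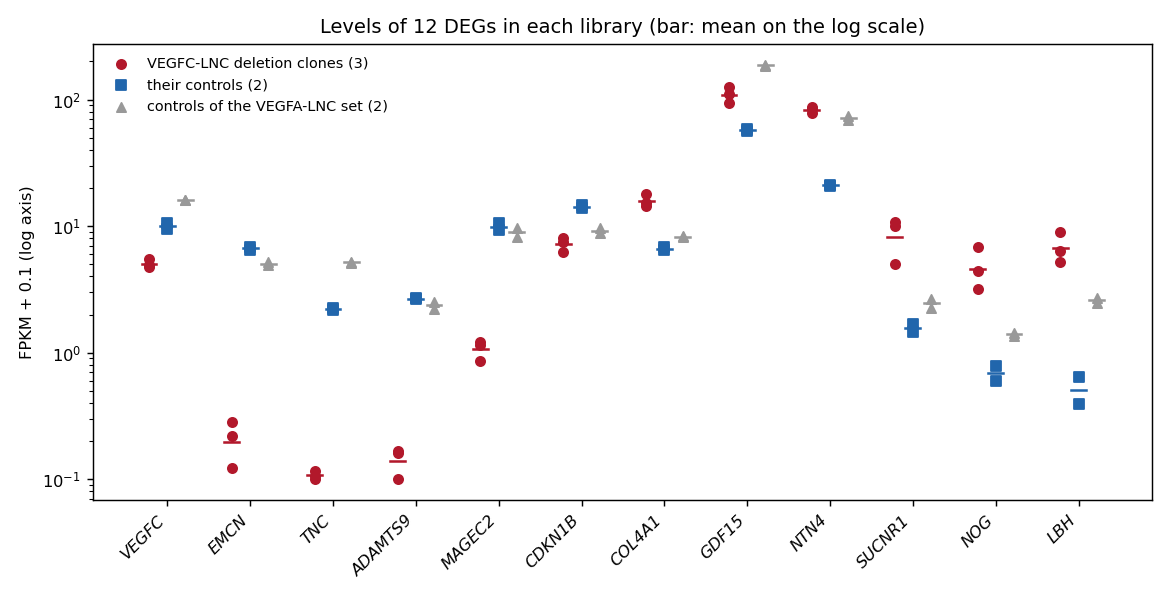
FPKM + 0.1 on a log axis (y axis) of 12 DEGs (x axis) in each of the 3 VEGFC-LNC deletion clones, their 2 controls and the 2 controls of the VEGFA-LNC set, with a bar at each mean. For GDF15 the VEGFA-LNC set controls, at 184 and 189 FPKM, lie above the clones, as they do for VEGFC.

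SCARNA5 and SCARNA10 are small Cajal body RNAs, noncoding RNAs that guide the modification of spliceosomal RNAs, and both rose. SCARNA5 had 14.8, 49.6 and 31.6 FPKM in the clones and 0.761 and 2.54 FPKM in the controls (log2 fold change 4.25, SE 0.64, FDR 0.0306), from 59 to 254 reads per clone. The VEGFA-LNC set controls had 23.7 and 22.1 FPKM of SCARNA5, above clone 1 and below clones 2 and 3. It lies on chromosome 2 within ATG16L1, on the same strand, and overlaps no exon of the host's 9 coding transcripts in GENCODE. Its host differed little, at 7.69, 7.07 and 7.76 FPKM against 6.88 and 6.93 FPKM. SCARNA10, in an intron of NCAPD2 on chromosome 12, had 78.5, 182 and 138 FPKM against 22.1 and 17.3 FPKM (log2 fold change 2.67, SE 0.36, FDR 0.0213). Its host NCAPD2 had lower values in the clones, 20.4, 11.7 and 17.3 FPKM against 58.7 and 58.9 FPKM. The small RNA and its host thus differed in opposite directions at this locus. The sequence of SCARNA5 is shown as the row with the largest increase (GRCh37, chr2:234184372-234184649, plus strand), with its first ATGATGA and its last CTGA in capitals, the letters of the C and D boxes of this class of RNA:
SCARNA5: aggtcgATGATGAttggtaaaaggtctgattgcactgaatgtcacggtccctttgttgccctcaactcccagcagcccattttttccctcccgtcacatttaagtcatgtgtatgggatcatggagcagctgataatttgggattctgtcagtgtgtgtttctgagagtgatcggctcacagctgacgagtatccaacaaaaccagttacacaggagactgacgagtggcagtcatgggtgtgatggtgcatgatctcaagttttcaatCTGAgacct

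Of the 99 tested small nucleolar and Cajal body RNAs, 59 had higher and 40 lower mean values in the clones, with a median log2 fold change of 0.27 against −0.09 over all tested genes. In 36 all clones lay above both controls, against 17.2% of all tested genes, and in 9 below them, against 30.6%. SNORD133, SCARNA16, SCARNA6 and SNORA94 had the smallest p-values of those not called. SNORD133 had 338, 603 and 95.2 FPKM against 20.6 and 26.5 FPKM (log2 fold change 3.52, SE 0.70, FDR 0.0735), and SCARNA16 had 43.4, 172 and 94.1 FPKM against 7.36 and 8.22 FPKM (log2 fold change 3.499, SE 0.59, FDR 0.0514). The recovery of such short RNA was not measured.

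MIR6501 was the single miRNA gene among the DEGs. Its row had 29.8, 30.3 and 33.7 FPKM in the clones and 75.0 and 57.0 FPKM in the controls (log2 fold change −1.06, SE 0.14, FDR 0.0201), from 15 to 44 reads per clone. The row overlaps coding exons of its host SON on the same strand in 3 of the host's 7 coding transcripts, and SON had 24.98, 24.5 and 26.9 FPKM against 35.8 and 35.6 FPKM. The row therefore cannot be told apart from SON, and the mature miRNAs, which are shorter than the reads, were not measured. They are given for identity only (RefSeq, GRCh38.p14), with the seed, bases 2 to 8, in capitals:
hsa-miR-6501-5p: aGUUGCCAgggcugccuuuggu
hsa-miR-6501-3p: cCAGAGCAgccugcgguaacagu
The 2 seeds differ.

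Genes of cell division gave the most uniform pattern of any list. All 57 tested members had lower mean values in the clones and in all 57 every clone lay below both controls, against 30.6% of all tested genes, but none was a DEG and 11 had an unadjusted p under 0.05, against 12.6% of all tested genes in this direction. The median log2 fold change was −1.70, and it differed strongly between clones, at −0.71, −2.74 and −1.56 in clones 1, 2 and 3. FOXM1, a transcription factor that drives mitotic genes, had 17.1, 4.99 and 14.3 FPKM against 48.6 and 49.4 FPKM (log2 fold change −2.19, SE 0.84, FDR 0.226). CDCA3, a trigger of mitotic entry, had 3.47, 0.596 and 1.98 FPKM against 8.31 and 8.03 FPKM (FDR 0.217). CDC25B, a phosphatase that activates cyclin-dependent kinases, was steady among the clones, at 43.4, 40.2 and 44.4 FPKM against 81.2 and 76.3 FPKM (FDR 0.134). The VEGFA-LNC set controls had 29.05 and 29.04 FPKM of CDC25B, below every clone. The spread among the clones was larger for this list than for the other lists, with an SD of 1.022 between the clone medians.

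The size of this difference, and for CDC25B its direction, depended on the control pair. Against the controls of the VEGFA-LNC set, which had 20.01 and 18.8 FPKM of FOXM1, the median of the cell division list was −0.31. The median of all tested genes against those controls was −0.20. The VEGFA-LNC deletion clones had a median of −0.75 against their own controls. In the DNA replication list, all 46 tested members had lower mean values and 44 had every clone below both controls, against 30.6% of all tested genes, with a median of −1.28 against the own controls and −0.06 against the VEGFA-LNC set controls. GINS3, a subunit of the replicative helicase on chromosome 16, was the only DEG of this list, at 9.83, 9.99 and 11.0 FPKM against 19.1 and 18.4 FPKM (log2 fold change −0.86, SE 0.12, FDR 0.023), and the VEGFA-LNC set controls had 9.56 and 9.84 FPKM. CDC45, its partner in the helicase, had a log2 fold change of −1.31 (FDR 0.151), and LIG1, RPA2 and RFC2 had −0.82, −0.62 and −1.12.

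Replication-dependent histone genes had lower mean values in 64 of 64 tested members, with a median of −1.69 and no DEG. HIST2H2BE had 30.8, 16.98 and 36.1 FPKM against 102 and 101 FPKM, and 21.7 and 17.8 FPKM in the VEGFA-LNC set controls (log2 fold change −1.92, FDR 0.135). HIST2H2BC, HIST2H2AC and HIST1H2BD had log2 fold changes of −1.86, −1.70 and −1.70. Against the VEGFA-LNC set controls the median of the histone list had the opposite sign, 0.50. Histone genes are near-identical copies, and reads may be shared between them.

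The promoters of cell division genes are known for 2 sequence elements, the CCAAT box and the cell cycle genes homology region TTTGAA. In the RefSeq windows of 300 bases, searched on both strands, TTTGAA was found in 37 of the 48 cell division genes with a window (77.1%), in 10% of 10001 tested genes with a window and in 1 of 38 DNA replication genes (2.63%). CCAAT was found in 68.8% of the cell division genes, 55.3% of the DNA replication genes and 36.9% of the tested genes. Both elements together occurred in 54.2% of the cell division genes and in 4.23% of the tested genes. The windows of CDCA3 and NCAPD2, both members of the cell division list, are shown as examples (GRCh38.p14, chr12:6851237-6851536, minus strand, and chr12:6493852-6494151, plus strand), with TTTGAA and CCAAT, or ATTGG on the other strand, in capitals:
CDCA3: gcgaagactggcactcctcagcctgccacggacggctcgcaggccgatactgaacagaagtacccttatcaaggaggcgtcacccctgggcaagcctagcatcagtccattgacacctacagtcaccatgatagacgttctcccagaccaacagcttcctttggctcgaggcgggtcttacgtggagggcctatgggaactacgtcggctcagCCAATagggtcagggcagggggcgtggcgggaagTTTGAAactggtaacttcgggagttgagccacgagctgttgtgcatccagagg
NCAPD2: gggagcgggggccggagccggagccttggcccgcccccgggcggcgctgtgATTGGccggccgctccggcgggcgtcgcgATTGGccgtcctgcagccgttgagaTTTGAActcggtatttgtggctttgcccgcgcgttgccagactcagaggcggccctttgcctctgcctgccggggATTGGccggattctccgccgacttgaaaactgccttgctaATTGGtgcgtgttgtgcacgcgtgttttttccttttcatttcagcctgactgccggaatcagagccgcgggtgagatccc
CDCA3 has 1 match of each element, and NCAPD2 has 4 of CCAAT and 1 of TTTGAA. Both genes lie in the chromosome 12 stretch. Matches describe the sequence and not a bound site.

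Among the VEGF ligands and the proteins that process them, VEGFC was the only DEG and 7 of 9 tested members had higher mean values in the clones, with a median log2 fold change of 0.48. CCBE1 had 12.3, 8.56 and 11.5 FPKM against 5.56 and 5.22 FPKM (log2 fold change 0.97, SE 0.18, FDR 0.0614). VEGFA, the main angiogenic ligand, had 8.85, 7.83 and 5.25 FPKM against 3.23 and 3.84 FPKM (log2 fold change 1.00, SE 0.27, FDR 0.127), with 10.2 and 9.62 FPKM in the VEGFA-LNC set controls. VEGFB and CTSD, a cathepsin that can process VEGFC, had log2 fold changes of 0.48 and 0.82, with FDRs of 0.174 and 0.108. Against the VEGFA-LNC set controls the median of the list was −0.47. Of the receptors, NRP1, NRP2, KDR and FLT1 had log2 fold changes of 0.22, 0.77, 1.59 and −0.09 with FDRs of at least 0.338, and KDR was low throughout, at 0.038, 1.33 and 0.844 FPKM against 0.036 and 0.164 FPKM. FLT4 reached at most 0.024 FPKM in the 5 libraries and was not tested.

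The medians of the matrix and adhesion lists lay near 0. Of 41 tested extracellular matrix genes, 25 had higher and 16 lower mean values, with a median of 0.12, COL4A1 as the one DEG that rose and TNC as the one that fell. THBS1, an inhibitor of angiogenesis, had 380, 430 and 646 FPKM against 194 and 189 FPKM (log2 fold change 1.30, SE 0.27, FDR 0.0803), and NID2, which joins laminin to collagen IV, had a log2 fold change of 1.66 (FDR 0.058). COL5A1 had 0.78 (FDR 0.108). The integrin list had a median of 0.12 over 17 genes and no DEG. ITGA4, the alpha 4 subunit, had 0.216, 0.112 and 0.082 FPKM against 0.903 and 0.806 FPKM (log2 fold change −2.05, SE 0.47, FDR 0.0925). ITGAV, ITGB3 and ITGB5, subunits of vitronectin receptors, had log2 fold changes of 0.65, 1.15 and 0.66 with FDRs of 0.11, 0.126 and 0.188.

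In the TGF-beta and BMP pathway, 2 genes rose, among them NOG, 19 of 31 tested members had higher mean values and the median was 0.06. SKIL, ACVR1, SMAD2 and INHBA had log2 fold changes of 0.49, 0.36, −0.30 and 1.48, and none was a DEG. In the Notch pathway there was no DEG among 14 tested genes and the median was 0.20. NOTCH4, the receptor most typical of endothelium, had 7.28, 9.83 and 8.09 FPKM against 4.72 and 4.62 FPKM (log2 fold change 0.82, SE 0.26, FDR 0.172), and RFNG, HEY1 and DLL1 had 0.46, −0.38 and 0.55.

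Of 29 tested p53 targets, 27 had higher mean values and in 20 all clones lay above both controls, against 17.2% of all tested genes, with a median of 0.62 (0.44, 0.57 and 0.73 in clones 1, 2 and 3). Of these, 15 had higher values at an unadjusted p under 0.05, against 6.24% of all tested genes in this direction. GDF15 was the only DEG of the list. PHLDA3, EDA2R, RRM2B and ZMAT3 had log2 fold changes of 1.04, 0.69, 0.73 and 0.89 with FDRs between 0.0778 and 0.0959. CDKN1A (p21) had 52.4, 66.5 and 104 FPKM against 40.6 and 38.9 FPKM, but the VEGFA-LNC set controls had 165 and 174 FPKM. Against those controls the median of the list was −0.64, of the opposite sign.

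HMOX1, the heme-degrading enzyme heme oxygenase 1, had 65.8, 56.3 and 75.9 FPKM in the clones and 11.5 and 11.9 FPKM in the controls (log2 fold change 2.48, SE 0.43, FDR 0.0537), just outside the threshold, and 140 and 146 FPKM in the VEGFA-LNC set controls. The NRF2 antioxidant list had a median of 0.29 over 19 genes, with AKR1C3, PGD and FTH1 at 1.03, 0.35 and 0.54. ATF4 targets, induced when amino acids run short or unfolded proteins build up, had a median of 0.54 over 16 genes (0.95, 0.97 and −0.03 in clones 1, 2 and 3), with CHAC1, SESN2, DDIT4 and ATF3 at 1.94, 1.09, 1.67 and 0.87. Against the VEGFA-LNC set controls the medians had the opposite sign, −0.34 for the NRF2 list and −0.85 for the ATF4 list. ANGPTL4, an inhibitor of lipoprotein lipase induced by fatty acids and hypoxia, had 11.9, 16.6 and 29.8 FPKM against 5.83 and 5.67 FPKM (log2 fold change 1.63, SE 0.50, FDR 0.161), and 61.3 and 68.2 FPKM in the VEGFA-LNC set controls. None of the 27 tested hypoxia and glycolysis genes was a DEG and their median was −0.14. ENO2, which lies in the chromosome 12 stretch, had −0.80 (FDR 0.0778), and P4HA1 and BNIP3L had 0.46 and 0.54.

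Immune-related lists differed in direction. Of 44 tested interferon-stimulated genes, 39 had higher mean values, with a median of 0.59 (0.15, 0.43 and 1.21 in clones 1, 2 and 3) and no DEG. ISG15, IRF7, RSAD2 and XAF1 had log2 fold changes of 1.24, 1.24, 1.46 and 3.57. All 7 tested MHC class II genes, which present peptides to helper T cells, had lower mean values, with a median of −1.95. HLA-DRA had 0.035, 0.382 and 0.116 FPKM against 5.54 and 6.55 FPKM (log2 fold change −4.67, SE 0.95, FDR 0.0757), and HLA-DRB1 had 0, 0.046 and 0 FPKM against 2.39 and 2.19 FPKM (log2 fold change −4.40, FDR 0.057). CD74 and HLA-DPA1 had −2.61 and −1.05 (FDRs 0.0643 and 0.151). NF-kB targets had a median of 0.12 over 21 genes and no DEG. BCL3, CXCL8, IL6 and CCL2 had −0.87, 1.95, 1.58 and 1.58.

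Of 36 tested apoptosis genes, 26 had higher mean values and none was a DEG, with a median of 0.29. FAS, the death receptor, BCL2L1 and CASP1 had 1.74, 1.21 and 0.55. Of 31 proteasome genes, 29 had lower mean values and none was a DEG, with a median of −0.30, and PSMD7, PSMB2, PSMB4 and PSMD4 had −0.53, −0.61, −0.45 and −0.43. The immediate-early list had a median of 0.15 over 22 genes, with SPRY2, FOSL2 and DUSP1 at 0.80, 0.39 and 0.37. In the keratinization list, SPRR2A, SPRR2B and PPL were DEGs, 9 of 15 tested members had lower mean values, and CSTA had −1.82 (FDR 0.108).

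The lists above are described by counts and medians beside those of all tested genes, of which 5463 had higher and 7870 lower mean values. The median of all tested genes was −0.09 against the own controls and −0.20 against the VEGFA-LNC set controls. The lists were not tested as sets.

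Endothelial and epithelial markers were both expressed in the cells. Endothelial markers such as CDH5, at 126, 250 and 275 FPKM in the clones and 119 and 118 FPKM in the controls, were expressed throughout, but CLDN5 was listed at 0 in all 5 libraries and VWF and KDR were low. The summed level of 15 endothelial markers ranged from 829 to 1504 FPKM in the clones and was 889 and 868 FPKM in the controls. PECAM1 ranged from 16.5 to 53.2 FPKM in the clones, around the 35.3 and 32.9 FPKM of the controls. ROBO4, ENG and ESAM had log2 fold changes of 1.22, 0.64 and 0.61 with FDRs of at least 0.266, and EMCN was the only DEG of the list. The epithelial keratins KRT8 and KRT18 had log2 fold changes of −1.25 and −1.28 (FDRs 0.163 and 0.202). KRT7, another keratin of simple epithelia, had 502, 242 and 412 FPKM against 253 and 247 FPKM (log2 fold change 0.56, FDR 0.439) and was the 1 member of the 4 tested with a higher mean. The summed level of 9 epithelial markers was 440 to 868 FPKM in the clones and 913 and 901 FPKM in the controls. MUC1 had −0.20 (FDR 0.818) and was the 1 tested epithelial marker outside the chromosome stretches. KRT7, KRT8 and KRT18 lie in the chromosome 12 stretch, and the part of that stretch in their values was not tested. CDH1 and ESRP1 were listed at 0. Of 5 leukocyte markers 3 were listed at 0, among them PTPRC and CD3E, and the sum was under 0.1 FPKM in every library. ACTA2, a mural and myofibroblast marker, varied among the clones, at 1.21, 4.46 and 19.02 FPKM against 0.95 and 0.659 FPKM. The part of these differences in the results above was not tested.

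The difference between the effects of the VEGFC-LNC and VEGFA-LNC deletions passed the FDR for 194 genes, 1.46% of those tested. Of the 63 DEGs of the VEGFC-LNC comparison, 34 were among them, 13 that rose and 21 that fell. VEGFC was not among them (FDR of the difference 0.187), and its level was 11.6, 11.4 and 10.8 FPKM in the VEGFA-LNC deletion clones against 16.1 and 15.97 FPKM in their controls. ADAMTS9 had a log2 fold change of −4.29 in the other comparison, and the difference was 0.04 (FDR 0.971). LBH had −1.99 there, against 3.73 here, a difference of 5.725 (SE 0.42, FDR 0.00227).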

How the data were processed

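RNA-Seq of 10 EA.hy926 libraries was used, 5 of them in the comparison reported. The authors deposited FPKM values per RefSeq transcript on hg19, and the submitters' processing notes name STAR 2.5.4b, Trim Galore 0.4.4 and featureCounts. Whole reads were recovered for at least 99.9956% of values (rounding tolerance 0.1 read). The transcript with the highest mean stood for each symbol, and a row named 0 was dropped. Genes with at least 1 CPM in at least 2 libraries were fitted in limma 3.58.1 (R 4.3.3) as log2(FPKM + 0.1), with 4 groups, all 10 libraries and a trended prior. A fold change on this scale understates that of low genes. The main test was run on the deposited unit, FPKM, and limma-voom on the recovered reads was an alternative. Named genes were VEGFC, genes the study names, the 15 largest DEGs each way, tested genes within 1 Mb of VEGFC, DEGs and up to 4 further members with the smallest p of each of 25 lists, and all other DEGs. Members and lists were chosen with earlier results of these data known. The fit was tried on simulated reads with known changes and the same spread in every library. In the data the median log2 SD was 0.249 among the clones and 0.064 between their controls. The simulation therefore does not give the rate of false calls for these data. Coordinates are those of the deposited table (hg19), and sequences are from RefSeq (GRCh38.p14) or GRCh37. A few members of the lists are not reported here by name.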

Additional observations from a re-analysis of the deposited data

Results flagged for a closer look

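The effects of the VEGFC-LNC and VEGFA-LNC deletions, each taken against its own controls, differed at a limma FDR under 0.05 for 41 of the genes named here. Each value below is the log2 fold change of the VEGFC-LNC comparison minus that of the VEGFA-LNC comparison. Among the DEGs that rose in the VEGFC-LNC deletion clones the difference was ARMC9 1.42, COL4A1 1.33, EDDM13 1.65, FICD 1.71, GDF15 1.14, LBH 5.725, NTN4 3.37, PRNP 1.97, PTGR1 2.47, RCAN1 3.55, SUCNR1 3.03 and TGFA 1.91. Among the DEGs that fell it was ADIPOR2 −1.01, BCL7C −1.40, CDKN1B −1.43, CNTNAP4 −2.24, FAM19A2 −2.49, GINS3 −0.98, GNAI1 −3.50, LINC01324 −4.81, LOC100506258 −4.35, METTL7A −3.28, NAALAD2 −3.38, NDUFC1 −1.03, PPL −5.52, PRIMPOL −1.60, SPRR2A −3.04, SPRR2B −2.65, TMEM132D-AS1 −4.95, ZBED5-AS1 −1.67, ZNF608 −3.92 and ZNF613 −2.80. Among genes that were not DEGs it was ATF3 3.37, CHAC1 3.55, COL5A1 1.99, DUSP1 1.25, EDA2R 1.14, HMOX1 4.81, ITGAV 1.82, SKIL 1.90 and THBS1 2.33.

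LBH, RCAN1, NTN4 and HMOX1 had positive values in the VEGFC-LNC comparison and negative values in the other, and PPL and LINC01324 the reverse. HMOX1 had log2 fold changes of 2.48 and −2.33, RCAN1 of 1.61 and −1.94 and NTN4 of 1.98 and −1.38. PPL had −3.39 and 2.12. SPRR2A and SPRR2B had negative values in both, −5.26 and −2.21 for SPRR2A and −5.35 and −2.70 for SPRR2B. The 2 control pairs themselves differed for several of these genes, with 11.5 and 11.9 FPKM of HMOX1 in one and 140 and 146 FPKM in the other, and the part of this in the differences was not tested.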

How the results depend on the processing

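DEG counts ranged widely. The 63 DEGs (20 up, 43 down) became 26 with only the 5 libraries fitted, 1 with the 2 controls of each pair averaged (596 genes at an unadjusted p under 0.05) and between 5 and 1158 when 1 library was left out. Without filter, with other pseudocounts, median-of-ratios scaling, all 4 controls, limma-voom on recovered reads or the longest transcript the count was 55 to 83. The log2 fold change of VEGFC was −0.998 with only the 5 libraries (FDR 0.0712) and −0.9995 with control pairs averaged (FDR 0.842), and leaving out 1 library gave −1.07 to −0.92, with FDRs up to 0.291.

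The replicate numbers did not pair the samples, since clones and controls of the same number deviated with correlations of −0.0427 and 0.0473. With the replicate block there were 20 DEGs, all 20 among the 63. The block gave −0.96 for VEGFC (FDR 0.0743), a median of −0.14 for NF-kB targets and 0.26 for apoptosis genes.

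With all 4 controls as the reference these log2 fold changes had the opposite sign: ANGPTL4 −0.10, ATF3 −1.25, COL5A1 −0.10, CXCL8 −0.47, DUSP1 −0.45, EDA2R −0.083, IL6 −0.0012, INHBA −0.041, ITGAV −0.41, P4HA1 −0.075, PHLDA3 −0.079, PTGR1 −0.057, SKIL −0.0051, FLT1 0.12 and WDR17 0.050. FLT1 had 0.28 with the longest transcript. Under the same reference the list medians turned to −0.065 (extracellular matrix), −0.13 (integrins), −0.47 (NF-kB targets), −0.10 (TGF-beta and BMP), −0.093 (NRF2), −0.23 (immediate-early) and −0.0072 (apoptosis). Others moved to 0.061 (VEGF ligands), 0.063 (p53 targets), −0.35 (hypoxia), −0.62 (histones) and 0.44 (small nucleolar and Cajal body RNAs). The TGF-beta and BMP median was 0.13 with median-of-ratios scaling and 0.15 with limma-voom. The MHC class II median was −0.79 with a pseudocount of 1, and the keratinization median −0.91 with the filter over the 5 libraries. The apoptosis median was 0.22 with that filter, 0.14 with a pseudocount of 1, 0.38 with median-of-ratios scaling, 0.21 with control pairs averaged and 0.34 without genes of the chromosome stretches, an alternative chosen after seeing the data. The chromosome 12 stretch had −0.35 with a pseudocount of 1 and −0.37 with median-of-ratios scaling.

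Leaving out 1 library gave medians of 0.046 to 0.26 for extracellular matrix, −0.070 to 0.30 for integrins, the lowest without clone 2, 0.18 to 0.31 for apoptosis and 0.19 to 0.64 for small nucleolar and Cajal body RNAs. MUC1, at −0.20 with all libraries, ranged from −0.577 to 0.18, with 0.16 without clone 2 and 0.18 without control 2. The causes were not tested. Precision was limited by 2 controls per set and by the 6743689 reads of clone 3.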

Other observations

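The clustered protocadherins, cell adhesion molecules encoded side by side on chromosome 5, were looked at after their values were seen. Of 29 tested members, 28 had higher mean values in the VEGFC-LNC deletion clones and in 26 all clones lay above both controls, against 17.2% of all tested genes, with no DEG. The median log2 difference was 0.70, and it was 0.16, 0.71 and 1.23 in clones 1, 2 and 3 and 0.48 against the controls of the VEGFA-LNC set. Members of a cluster share exons, and their values are not independent.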
